A study of Rattus norvegicus with 10 samples.

Results

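Transcripts of 9 genes that carry calcium and magnesium across the distal kidney tubule were measured by RNA sequencing in the renal cortex of rats mutant for Kcnj16 and of wild-type rats. The genes were taken by symbol from a table of 32545 genes and are Trpv5, Calb1, S100g, Slc8a1, Atp2b1, Trpm6, Cnnm2, Slc41a1 and Slc41a3. All 9 matched a single row, and all 9 passed the filter on low values that left 13971 genes for testing. Mutant rats (Kcnj16_m1, 5 libraries) were compared with wild-type rats (SS_WT, 5 libraries). Replicate numbers are not in the labels and were assigned here in sample order within each group. Mutant and wild-type libraries that share a number are not known to be matched. Every rat was a male of the Dahl salt-sensitive strain, which becomes hypertensive on a high-salt diet, and was 11 to 12 weeks old. All spent 24 hours in metabolic cages for urine collection before the left kidney was flushed and frozen. The series title calls the mutants knockout rats, and the labels name the allele m1 without its sequence change. Zygosity and diet are not stated in the labels. Kcnj16 encodes a potassium channel subunit of the basolateral membrane of distal tubule cells.

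The distal convoluted tubule and the connecting tubule that follows it set the final amounts of calcium and magnesium in urine. In the later part of this stretch calcium enters cells from the urine through the channel TRPV5, is carried through the cell bound to calbindins and leaves into the blood through the sodium-calcium exchanger and the plasma membrane calcium pump. Magnesium enters mainly in the early distal convoluted tubule, through channels that contain TRPM6, and CNNM2 and SLC41 proteins take part in its later handling. The early segment also holds the thiazide-sensitive sodium chloride cotransporter, encoded by Slc12a3.

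Levels are in FPKM, fragment counts scaled by the authors for gene length and library size. The whole reads behind the values summed to between 16361516 and 23385968 per library. The 9 genes rested on 22 to 6300 reads per library, and Slc41a3 with 22 to 50 and S100g with 30 to 72 had the fewest, so counting error weighs most on both. Kcnj16 itself stood at 326 ± 13.3 FPKM in Kcnj16_m1 and 347 ± 21.6 FPKM in SS_WT (SD, n = 5 each) and did not pass the test (limma adjusted p = 0.278), so the transcript level cannot check the genotype labels. In bulk cortex, fewer cells of a type and less RNA per cell cannot be told apart. Summed FPKM of 11 markers of the distal convoluted tubule ran from 360 to 399 in Kcnj16_m1 and from 233 to 336 in SS_WT, and 5 of the 10 tested were higher and 1, Fgf13, lower, with a median log2 fold change of 0.28. Pvalb, a marker of the early segment, was listed at 0 in every library. A list of 13 tubular injury markers summed to between 326 and 403 FPKM in Kcnj16_m1 and between 695 and 3388 FPKM in SS_WT, with the lowest sum in SS_WT replicate 4 and the highest in SS_WT replicate 3. Of its 12 tested members, 10 were lower in Kcnj16_m1 and 2 did not pass. Over all genes tested, 14.6% were called higher and 14.0% lower. The part of these markers in the results was not tested.

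Trpm6 and Cnnm2, of the magnesium route, were higher in Kcnj16_m1, though not relative to Slc12a3, Klhl3 and Pvalb, 3 markers of the distal convoluted tubule, and Trpv5 and Calb1, of the calcium route, and the magnesium carrier gene Slc41a1 were lower. Calb1 stood at 0.428 times, Trpv5 at 0.581 times and Slc41a1 at 0.745 times the wild-type mean, and Trpm6 at 1.32 times and Cnnm2 at 1.27 times. Slc8a1, Atp2b1, S100g and Slc41a3 did not pass the test. The 5 calls among 9 genes, 2 higher and 3 lower, stand beside 28.5% of all tested genes called, 14.6% higher and 14.0% lower (limma, Benjamini-Hochberg adjusted p under 0.05 over all 13971 genes). The median log2 fold change was -0.19 over the 9 genes and 0.01 over all genes tested. That of the 9 genes ran from -0.35 without SS_WT replicate 1 to -0.10 without SS_WT replicate 2, and was -0.11 without SS_WT replicate 3 and -0.12 without Kcnj16_m1 replicate 5. All fold changes are Kcnj16_m1 minus SS_WT on log2(FPKM + 0.5), a scale that understates the change of low genes.

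**Figure D1:**
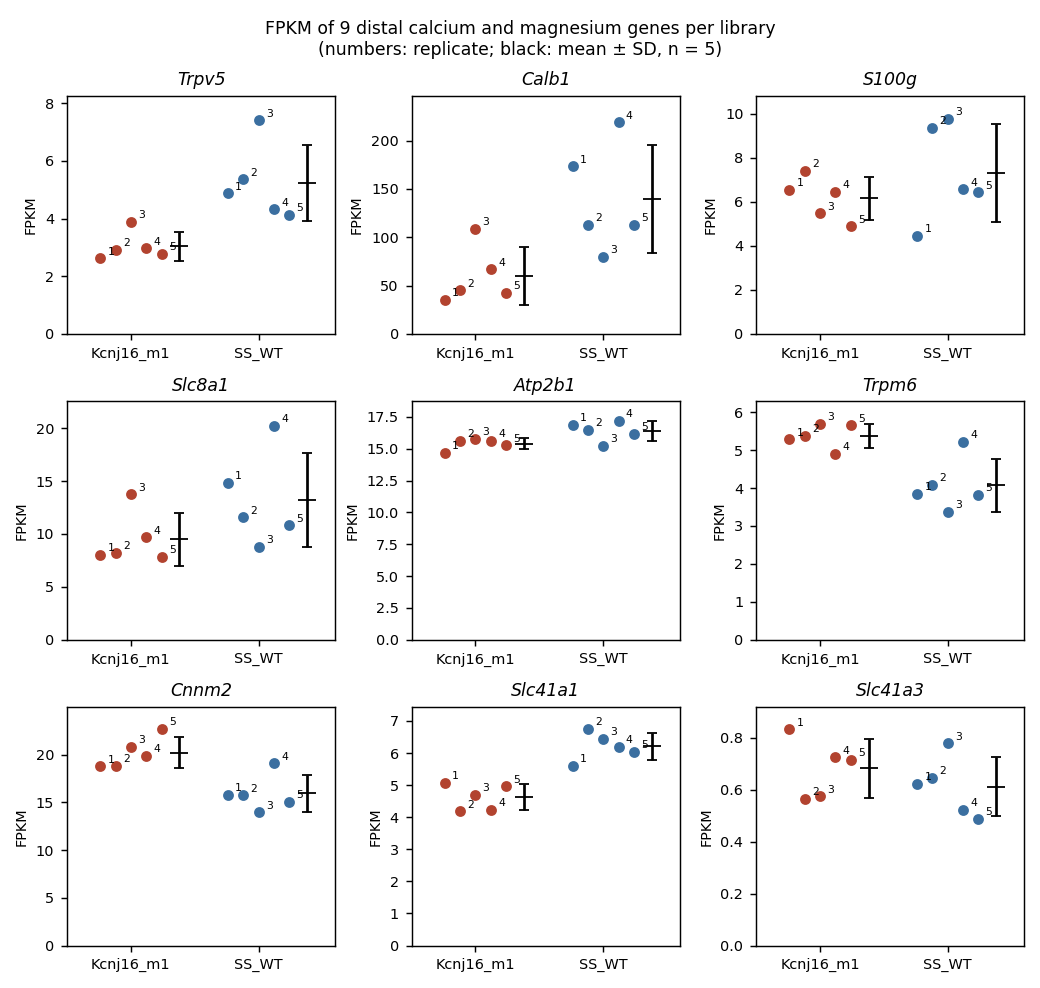
FPKM of the 9 genes in each library, Kcnj16_m1 at the left and SS_WT at the right of each panel, with replicate numbers beside the points and the mean ± SD of 5 libraries in black. Trpv5 and Slc41a1 are lower in all 5 mutant libraries than in any wild-type library, whereas the groups overlap for the other 7 genes.

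Trpv5 (ENSRNOG00000015394; chromosome 4, 70947717 to 70974006, minus strand), the gene of the apical calcium entry channel, stood at 2.63, 2.91, 3.90, 2.97 and 2.77 FPKM in Kcnj16_m1 replicates 1 to 5, against 4.88, 5.36, 7.41, 4.33 and 4.13 FPKM in SS_WT replicates 1 to 5. The groups did not overlap, and replicate 3 was the highest library of each. Trpv5 fell by 0.68 on the log2 scale (95% interval -0.999 to -0.36, SE 0.15, limma adjusted p = 0.00680). The exact two-sided permutation test gave p = 0.00794, the smallest that the 252 splits of 10 libraries allow. Without SS_WT replicate 3 the log2 fold change was -0.55. Positions here and for the genes that follow were taken from the deposited table, and its build was not named in the labels.

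Calb1 (ENSRNOG00000007456; chromosome 5, 29538380 to 29562773, plus strand) encodes calbindin-D28K, which buffers calcium in the cytosol of the late distal convoluted and connecting tubule. It was the most abundant of the 9 genes in both groups. Its levels were 35.5, 45.1, 109, 66.9 and 42.8 FPKM in Kcnj16_m1 replicates 1 to 5, against 173, 113, 80.0, 219 and 113 FPKM in SS_WT replicates 1 to 5. Mutant replicate 3 lay above wild-type replicate 3, and the other 4 mutant libraries lay below every wild-type library. Calb1 fell by 1.25 on the log2 scale (95% interval -1.97 to -0.53, SE 0.33, limma adjusted p = 0.0168). Without mutant replicate 3 the log2 fold change was -1.49, and without wild-type replicate 4 it was -1.06. The call was lost without SS_WT replicates 1 and 2 together (log2 fold change -1.19, limma adjusted p = 0.0587).

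S100g (ENSRNOG00000004222; chromosome X, 33443186 to 33445709, plus strand) encodes calbindin-D9k, the smaller calcium buffer. S100g stood at 6.54, 7.42, 5.49, 6.46 and 4.90 FPKM in Kcnj16_m1 replicates 1 to 5, against 4.45, 9.37, 9.76, 6.58 and 6.44 FPKM in SS_WT replicates 1 to 5. The mutant values lay within the wild-type range, and the log2 fold change of -0.19 had a 95% interval from -0.61 to 0.22 (limma adjusted p = 0.469). The log2 fold change was -0.35 without SS_WT replicate 1, -0.10 without SS_WT replicate 2, -0.08 without SS_WT replicate 3 and -0.12 without Kcnj16_m1 replicate 5, none of which passed. The gene overlaps Ctps2 on the other strand, and since the sources do not say whether the libraries kept strand, its level is uncertain.

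Of the calcium exit genes, Slc8a1 (ENSRNOG00000008479; chromosome 6, 4258991 to 4520604, minus strand) encodes the sodium-calcium exchanger. It stood at 8.04, 8.19, 13.8, 9.69 and 7.82 FPKM in Kcnj16_m1 replicates 1 to 5, against 14.8, 11.6, 8.80, 20.2 and 10.8 FPKM in SS_WT replicates 1 to 5. The groups overlapped through mutant replicate 3 and wild-type replicate 3, and the log2 fold change of -0.43 did not pass (95% interval -0.90 to 0.03, limma adjusted p = 0.150). It was -0.27 without SS_WT replicate 4 and -0.57 without Kcnj16_m1 replicate 3, and neither passed (limma adjusted p = 0.285 and 0.0651). Atp2b1 (ENSRNOG00000004026; chromosome 7, 41114697 to 41220579, plus strand), the gene of a plasma membrane calcium pump found in many cell types, was the least variable of the 9. It stood at 14.7, 15.6, 15.8, 15.6 and 15.3 FPKM in Kcnj16_m1 replicates 1 to 5, against 16.9, 16.5, 15.2, 17.2 and 16.2 FPKM in SS_WT replicates 1 to 5. Its log2 fold change of -0.09 did not pass over all genes (95% interval -0.19 to 0.01, limma adjusted p = 0.181), whereas the exact permutation test of the gene by itself gave p = 0.0476. Both genes are also used by smooth muscle, whose 9 markers summed to between 87.8 and 119.7 FPKM in Kcnj16_m1 and between 88.7 and 139.3 FPKM in SS_WT.

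Calb1 and Slc8a1 had nearly the same order of libraries in both groups. Replicates 3, 4 and 2 were the highest in Kcnj16_m1 for both genes, replicates 4 and 1 were the highest in SS_WT and replicate 3 was the lowest there. The ratio of Calb1 to Slc8a1 FPKM averaged 6.04 in Kcnj16_m1 (4.41 to 7.89 over 5 libraries) and 10.4 in SS_WT (9.09 to 11.7 over 5 libraries), and its groups did not overlap. Trpv5 followed the same order as Calb1 in Kcnj16_m1, with replicate 3 highest and replicate 1 lowest. In SS_WT it did not: replicate 3 was the highest library for Trpv5 and the lowest for Calb1. The summed injury markers of the SS_WT libraries ran from highest to lowest in replicates 3, 2, 5, 1 and 4, the reverse of the order of Calb1. Their part in the levels of Calb1 and Trpv5 was not tested.

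**Figure D2:**
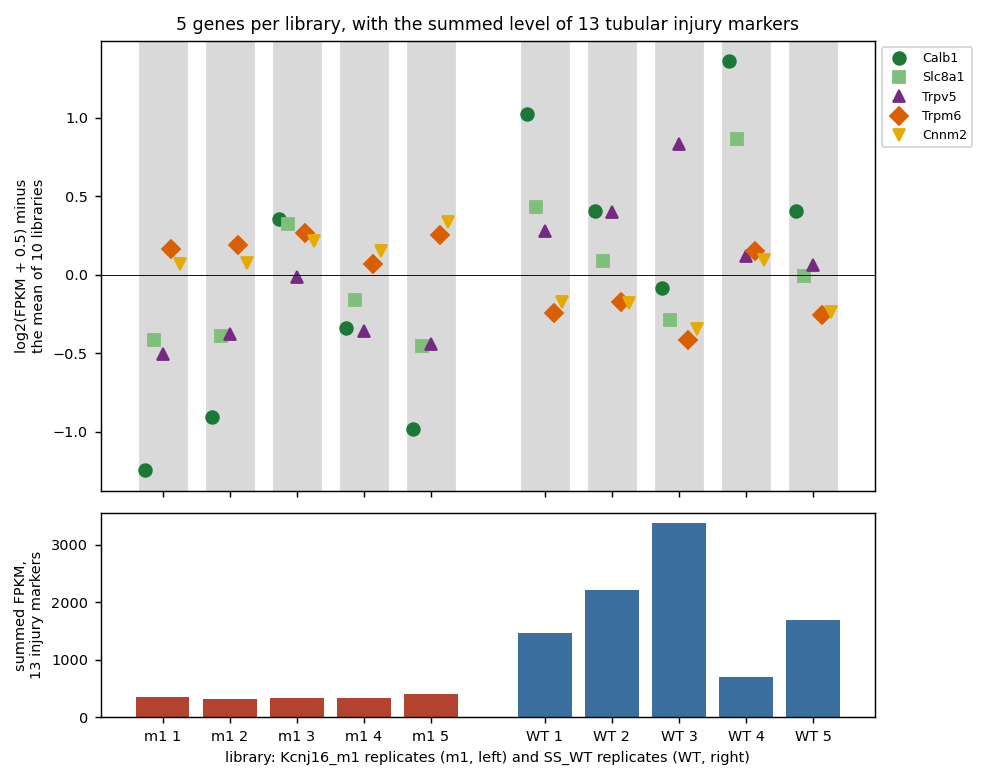
Upper panel: log2(FPKM + 0.5) of 5 genes in each library minus the gene's mean over all 10 libraries, Kcnj16_m1 at the left and SS_WT at the right. Lower panel: summed FPKM of 13 tubular injury markers in the same libraries. In SS_WT replicate 3, Trpv5 is at its highest and Calb1, Slc8a1, Trpm6 and Cnnm2 are at their lowest among wild-type libraries, and the injury sum is the highest.

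Trpm6 (ENSRNOG00000013053; chromosome 1, 234479289 to 234596971, minus strand), the gene of the apical magnesium channel, stood at 5.29, 5.37, 5.69, 4.90 and 5.65 FPKM in Kcnj16_m1 replicates 1 to 5, against 3.85, 4.08, 3.37, 5.23 and 3.82 FPKM in SS_WT replicates 1 to 5. SS_WT replicate 4 lay within the mutant range, and the other 4 wild-type libraries lay below every mutant library. Trpm6 rose with a log2 fold change of 0.38 (95% interval 0.16 to 0.59, SE 0.10, limma adjusted p = 0.0158). That became -0.025 relative to Slc12a3, Klhl3 and Pvalb, and -0.23 without Pvalb, which was 0 in every library. With no reference Trpm6 lay above the median of 0.28 over the 10 tested markers of the distal convoluted tubule. It lay below Tmem52b (0.78), Klhl3 (0.69), Sall3 (0.67) and Slc12a3 (0.51) of that list, and above Hoxb7 (0.26), Trpm7 (0.09) and Fgf13 (-0.45). The limma adjusted p was 0.0563 without SS_WT replicates 1 and 2, where the log2 fold change was 0.36. A 7SK small RNA entry on the other strand overlaps the gene.

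Cnnm2 (ENSRNOG00000020113; chromosome 1, 266530477 to 266649398, plus strand) encodes a basolateral membrane protein whose loss causes magnesium wasting in humans. Its levels were 18.8, 18.9, 20.8, 19.9 and 22.7 FPKM in Kcnj16_m1 replicates 1 to 5, against 15.8, 15.8, 14.0, 19.1 and 15.1 FPKM in SS_WT replicates 1 to 5. Again only SS_WT replicate 4 overlapped the mutants. Cnnm2 rose with a log2 fold change of 0.34 (95% interval 0.16 to 0.52, SE 0.08, limma adjusted p = 0.0122). That became -0.063 relative to the same 3 markers, and -0.26 without Pvalb. With no reference Cnnm2 also lay above the median of 0.28 over the 10, and below the same named markers as Trpm6.

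Among all 36 pairs of the 9 genes, Trpm6 and Cnnm2 had the most similar profiles over the 10 libraries, with a root mean square difference of 0.07 on the log2 scale after centring each gene. The promoters of both, and that of Trpv5 as a gene that moved the other way, are shown from RefSeq on build GRCr8, since the deposited table holds no sequence. Each is the 250 bases upstream of an annotated start, 5′ to 3′ on the gene's strand as RefSeq gives it. Trpm6 has 3 annotated starts there, and the most downstream is shown (chr1:225596059-225596308, plus strand, whereas the deposited table places the gene on the minus strand of its own build). The window of Cnnm2 is chr1:255584902-255585151, plus strand, and that of Trpv5 is chr4:71529383-71529632, minus strand. Capitals mark matches, on either strand, to the nuclear receptor core AGGTCA, the steroid receptor core TGTTCT, the CREB core TGACG, the TATA box letters TATAAA or the GC box letters GGGCGG.
Trpm6: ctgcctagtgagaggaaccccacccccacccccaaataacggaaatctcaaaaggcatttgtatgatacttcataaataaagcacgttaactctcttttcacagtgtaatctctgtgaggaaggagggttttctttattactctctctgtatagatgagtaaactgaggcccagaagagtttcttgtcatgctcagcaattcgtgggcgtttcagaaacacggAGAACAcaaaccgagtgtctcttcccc
Cnnm2: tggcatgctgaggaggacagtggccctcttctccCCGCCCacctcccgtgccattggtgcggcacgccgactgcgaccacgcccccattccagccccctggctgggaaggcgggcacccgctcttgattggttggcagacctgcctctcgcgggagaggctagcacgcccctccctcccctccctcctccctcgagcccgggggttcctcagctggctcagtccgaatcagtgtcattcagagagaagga
Trpv5: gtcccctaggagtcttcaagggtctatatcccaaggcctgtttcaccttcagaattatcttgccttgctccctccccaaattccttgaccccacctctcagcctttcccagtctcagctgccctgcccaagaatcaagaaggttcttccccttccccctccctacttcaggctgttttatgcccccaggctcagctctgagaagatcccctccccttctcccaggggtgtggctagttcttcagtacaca
The Trpm6 window shown held a single match, AGAACA, the reverse complement of TGTTCT, 27 bases upstream of the start. Of 33469 RefSeq promoter windows, 17.5% hold that motif. The window at chr1:225596058-225596307 overlaps the one shown and held the same match, 26 bases upstream. The window of the remaining Trpm6 start, chr1:225559278-225559527, held no match. Cnnm2 held a single GC box match 216 bases upstream, and 30.5% of windows hold it. No motif was shared by both, and none of the 5 was found in the Trpv5 window. The windows differed in base composition, with 44.4% G and C in Trpm6, 67.2% in Cnnm2 and 54.4% in Trpv5.

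Slc41a1 (ENSRNOG00000042320; chromosome 13, 48607308 to 48627999, plus strand) encodes a sodium-dependent magnesium extruder. Its levels were 5.07, 4.18, 4.69, 4.23 and 4.96 FPKM in Kcnj16_m1 replicates 1 to 5, against 5.60, 6.75, 6.45, 6.20 and 6.04 FPKM in SS_WT replicates 1 to 5. The groups did not overlap. Slc41a1 fell by 0.39 on the log2 scale (95% interval -0.55 to -0.23, SE 0.07, limma adjusted p = 0.00331), opposite to Trpm6 and Cnnm2. Slc41a3 (ENSRNOG00000045821; chromosome 4, 123467549 to 123510217, minus strand), its relative, stood at 0.832, 0.564, 0.574, 0.724 and 0.714 FPKM in Kcnj16_m1 replicates 1 to 5, against 0.622, 0.646, 0.778, 0.522 and 0.488 FPKM in SS_WT replicates 1 to 5. The groups overlapped, and the log2 fold change of 0.09 had a 95% interval from -0.17 to 0.35 (limma adjusted p = 0.605) and ran from 0.04 to 0.14 with 1 library left out. Trpv5 and Slc41a1 were thus the 2 of 9 genes whose groups did not overlap, beside 19.2% of all genes tested.

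The order of levels, which FPKM allows since it is per length, differed between the groups below Calb1. In Kcnj16_m1, Calb1 (59.8 FPKM on average) was followed by Cnnm2 (20.2), Atp2b1 (15.4), Slc8a1 (9.50), S100g (6.16), Trpm6 (5.38), Slc41a1 (4.63), Trpv5 (3.04) and Slc41a3 (0.682). Each gene there was above the next in all 5 libraries, except that S100g was above Trpm6 in 3 of 5. In SS_WT, Calb1 (139.5 FPKM on average) was followed by Atp2b1 (16.4), Cnnm2 (16.0), Slc8a1 (13.2), S100g (7.32), Slc41a1 (6.21), Trpv5 (5.22), Trpm6 (4.07) and Slc41a3 (0.611). In SS_WT all 5 libraries kept Calb1 above Atp2b1 and Trpm6 above Slc41a3, and each of the other neighbours kept its order in 4 of 5. An exact sign-flip test over 5 libraries cannot give a two-sided p below 0.0625, so no pair of neighbours could pass. Trpm6 was above Trpv5 in every mutant library and below it in 4 of 5 wild-type libraries, and the ratio of Trpm6 to Trpv5 FPKM was 1.80 ± 0.246 in Kcnj16_m1 and 0.828 ± 0.274 in SS_WT (SD, n = 5 each).

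Levels were also set against markers of the distal convoluted tubule. Slc12a3 rose to 121 ± 11.0 FPKM in Kcnj16_m1, against 86.0 ± 17.7 FPKM in SS_WT (SD, n = 5 each, log2 fold change 0.51, limma adjusted p = 0.0109). The ratio of Trpm6 to Slc12a3 FPKM was 0.0445 ± 0.00349 in Kcnj16_m1 and 0.0478 ± 0.00525 in SS_WT, and the groups overlapped. The ratio of Trpv5 to Slc12a3 FPKM was 0.0252 ± 0.00495 in Kcnj16_m1 and 0.0642 ± 0.0262 in SS_WT, that of Calb1 was 0.499 ± 0.256 in Kcnj16_m1 and 1.58 ± 0.320 in SS_WT, and neither overlapped. For Cnnm2 the ratio was 0.167 ± 0.00979 in Kcnj16_m1 and 0.188 ± 0.0200 in SS_WT, with overlap, and for Slc41a1 it was 0.0382 ± 0.00186 in Kcnj16_m1 and 0.0749 ± 0.0174 in SS_WT, without.

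With every gene taken relative to the mean log2 level of Slc12a3, Klhl3 and Pvalb in its own library, every log2 difference was lower by construction, that of each of the 9 genes changing by -0.40. The median of all genes was then -0.39, and 165 genes were called higher and 8324 lower, beside 2033 higher and 1955 lower without this reference. Such a difference compares a gene with these markers and not with the rest of the transcriptome. Trpm6 stood at -0.025 (95% interval -0.25 to 0.20, limma adjusted p = 0.840) and Cnnm2 at -0.063 (95% interval -0.26 to 0.13, limma adjusted p = 0.542). Calb1 (-1.65), Trpv5 (-1.08), Slc8a1 (-0.83) and Slc41a1 (-0.79) lay furthest below these markers, and S100g (-0.59), Atp2b1 (-0.49) and Slc41a3 (-0.31) lay nearer to the shifted median. Pvalb, listed at 0 throughout, holds no group difference and so made the shift smaller. The shift was -0.40 with Pvalb and -0.60 with Slc12a3 and Klhl3 alone. Slc12a3 and Klhl3 rose more than most of the list. The 10 tested markers of the distal convoluted tubule had a median of -0.12 on the 3-marker reference, below both Trpm6 and Cnnm2. Without a reference, Tmem52b (0.78), Klhl3 (0.69), Sall3 (0.67) and Slc12a3 (0.51) rose more than both. Hoxb7 (0.26), Trpm7 (0.09) and Fgf13 (-0.45) lay below both. With Slc12a3 and Klhl3 alone, a choice made after seeing the data, Trpm6 stood at -0.23 and Cnnm2 at -0.26, beside a median of all genes of -0.59.

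**Figure D3:**
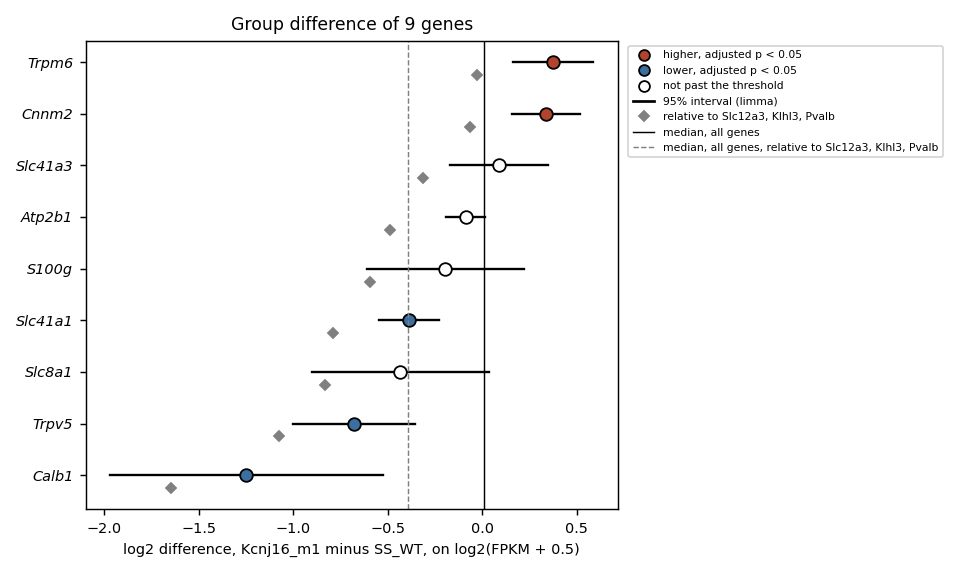
Log2 difference of each gene, Kcnj16_m1 minus SS_WT, with its 95% interval (circles, filled where limma's adjusted p was under 0.05), and the same difference relative to Slc12a3, Klhl3 and Pvalb (grey diamonds). The solid line marks the median of all genes (0.01) and the dashed line that median relative to these 3 markers (-0.39). Relative to the 3 markers, Trpm6 and Cnnm2 lie at -0.025 and -0.063, Calb1 and Trpv5 at -1.65 and -1.08, and the median of the 10 tested markers of the distal convoluted tubule, not drawn, is -0.12. Without Pvalb, which was 0 in every library, Trpm6 and Cnnm2 lie at -0.23 and -0.26, also not drawn.

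Calb1 and Trpv5 fell while most markers on a joint list of the connecting tubule and principal cells were higher. The list does not separate the connecting tubule, where Calb1 also acts, from principal cells. Its gene Klk1 was not found in the table. Of 11 connecting tubule and principal cell markers, 7 were higher in Kcnj16_m1 and 4 did not pass, and their median log2 fold change was 0.44, or 0.04 relative to Slc12a3, Klhl3 and Pvalb and -0.16 without Pvalb in that reference. The share called was 63.6%, beside 28.5% of all genes tested. Summed FPKM of the 11 ran from 305 to 399 in Kcnj16_m1 and from 211 to 313 in SS_WT. Among them were the water channel gene Aqp3 (log2 fold change 0.44, limma adjusted p = 0.00336), the vasopressin receptor gene Avpr2 (log2 fold change 0.71, limma adjusted p = 0.00119) and Hsd11b2, which protects the mineralocorticoid receptor from glucocorticoids (log2 fold change 0.49, limma adjusted p = 0.0124). Other cell type lists moved as well. Of tested markers, 6 of 7 for podocytes, 7 of 9 endothelial and 4 of 9 proximal tubule were higher and 0 lower. Of 10 for intercalated cells, 6 were higher and 3 lower, and of 9 for the thick ascending limb, 2 were higher. Of those for macrophages and dendritic cells 10 of 12 were lower, and 7 of 7 for lymphocytes. Over all genes tested, 14.6% were higher and 14.0% lower. The part of these lists in the levels of Calb1 and Trpv5 was not tested.

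The remaining genes of the calcium route went both ways. Of 20 listed genes found in the table, 16 were tested, 3 were higher, 3 lower and 10 did not pass, and the median log2 fold change was 0.02. The share called was 37.5%, beside 28.5% of all genes tested. S100a10 and Anxa2 encode the S100A10-annexin 2 complex that binds TRPV5 and helps to bring it to the cell surface. S100a10 fell to 47.1 ± 2.85 FPKM in Kcnj16_m1, against 156 ± 59.5 FPKM in SS_WT (SD, n = 5 each, log2 fold change -1.63, SE 0.22, limma adjusted p = 0.000698). Anxa2 fell to 24.6 ± 2.54 FPKM in Kcnj16_m1, against 50.6 ± 16.9 FPKM in SS_WT (log2 fold change -0.97, SE 0.20, limma adjusted p = 0.00523). In SS_WT, both genes had the same order of libraries as the injury marker sum, highest in replicate 3 and lowest in replicate 4. The part of injury in both was not tested. Rab11a, which returns channels to the membrane, fell by 0.20 on the log2 scale (limma adjusted p = 0.0147). The cation channel gene Trpv4, the calcium pump gene Atp2a3 and the calcium release channel gene Itpr1 rose, with log2 fold changes of 0.36, 0.61 and 0.32. Atp2a3 and Itpr1 overlap other genes and are uncertain.

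Trpv6, the close relative of Trpv5, was rare, at 0.380 ± 0.117 FPKM in Kcnj16_m1 and 0.687 ± 0.262 FPKM in SS_WT (SD, n = 5 each). It rested on 11 to 46 reads per library, and reads can be misassigned between the 2 relatives. The log2 fold change of -0.41 did not pass (95% interval -0.82 to 0.01, limma adjusted p = 0.130). SS_WT replicate 4 decided this, since without it the log2 fold change was -0.58 (limma adjusted p = 0.0107). The ratio of Trpv6 to Trpv5 FPKM was 0.130 ± 0.0505 in Kcnj16_m1 and 0.133 ± 0.0511 in SS_WT.

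Among genes of calcium hormones and their regulators, Pth1r, Rxra and Sgk1 rose and Tgfb1 fell. Among the 18 tested, 5 rose, 1 fell and 12 were not called, and the median log2 fold change was 0.24, or -0.16 relative to Slc12a3, Klhl3 and Pvalb. The share called was 33.3%, beside 28.5% of all genes tested. Pth1r, the receptor gene of parathyroid hormone, rose to 277 ± 12.5 FPKM in Kcnj16_m1, against 217 ± 17.5 FPKM in SS_WT (SD, n = 5 each, log2 fold change 0.35, limma adjusted p = 0.00269). Rxra, whose product pairs with the vitamin D receptor, had a log2 fold change of 0.32 (limma adjusted p = 0.00536). Vdr, the gene of that receptor, stood at 41.5 ± 3.44 FPKM in Kcnj16_m1 and 35.2 ± 3.66 FPKM in SS_WT, and its limma adjusted p of 0.0398 was over the threshold in 8 of 10 fits with 1 library left out, at up to 0.0888. Both Sgk1, an aldosterone-induced kinase gene, and Wnk4, a kinase gene of the distal tubule, were higher, with log2 fold changes of 1.29 and 0.33, and Wnk4 overlaps other genes and is uncertain. Tgfb1, a growth factor gene, was lower (log2 fold change -0.53, limma adjusted p = 0.0201). Casr, the gene of the calcium-sensing receptor, had a log2 fold change of 0.32 that did not pass (limma adjusted p = 0.0862), and that was 0.42 without SS_WT replicate 4 (limma adjusted p = 0.0216) and 0.21 without SS_WT replicate 3 (limma adjusted p = 0.129). Without SS_WT replicate 4, 8 genes of the list were called higher, and without SS_WT replicate 3, 4 were.

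Of the other magnesium genes, 27 were tested. Of these 9 rose, 5 fell and 13 were not called (51.9% called, beside 28.5% of all genes tested), and the median log2 fold change was 0.07. Cnnm3, a relative of Cnnm2, rose to 22.1 ± 1.49 FPKM in Kcnj16_m1, against 15.8 ± 1.22 FPKM in SS_WT (SD, n = 5 each, log2 fold change 0.47, limma adjusted p = 0.000861). Ptp4a3, whose product binds CNNM proteins, rose with a log2 fold change of 0.63 (limma adjusted p = 0.00181). Relatives of Cnnm3 and Ptp4a3 did not all rise. Cnnm1 fell (log2 fold change -0.41, limma adjusted p = 0.0224), as did Ptp4a2 (log2 fold change -0.19, limma adjusted p = 0.0355). Cnnm4 and Ptp4a1 were not called, with log2 fold changes of 0.07 and -0.40. Bsnd, whose loss causes renal salt wasting, rose with a log2 fold change of 0.45 (limma adjusted p = 0.00572). Egf, whose product stimulates TRPM6, stood at 48.1 ± 3.02 FPKM in Kcnj16_m1 and 27.5 ± 12.3 FPKM in SS_WT, with no overlap (log2 fold change 0.92, limma adjusted p = 0.0275). The call on Egf was lost without SS_WT replicate 2 or 5 or any of Kcnj16_m1 replicates 1 to 4, at limma adjusted p between 0.0515 and 0.0615, while the log2 fold change stayed between 0.86 and 0.93. Tusc3, listed as a magnesium transporter gene and part of the N-glycosylation machinery, fell by 0.33, and Fam111a, a gene mutated in a human disorder with low parathyroid hormone, fell by 0.89 on the log2 scale on 7 to 56 reads per library. With 1 library left out, the count of higher genes ran from 6, without SS_WT replicate 5, to 9. The count of lower genes was 2 without SS_WT replicate 2 or Kcnj16_m1 replicate 3, and 3 without SS_WT replicate 5 or Kcnj16_m1 replicate 2 or 5.

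Of the genes for calcium and magnesium passage between cells, 9 were tested. Of these 2 rose, 2 fell and 5 were not called (44.4% called, beside 28.5% of all genes tested), and the median log2 fold change was 0.05. Cldn10 and Cldn12, which encode tight junction claudins, had log2 fold changes of 0.33 and 0.31 (limma adjusted p = 0.0222 and 0.00462). The call on Cldn10 was lost without Kcnj16_m1 replicate 4 or 5 (limma adjusted p = 0.0519 and 0.0517), which left 1 gene called higher. Cldn3, another claudin gene, fell by 1.04, and Ctsl, which encodes the lysosomal protease cathepsin L and no junction protein, fell by 0.78 on the log2 scale. Cldn19, whose product forms a cation pore of the thick ascending limb, stood at 9.32 ± 0.513 FPKM in Kcnj16_m1 and 10.3 ± 1.47 FPKM in SS_WT and did not pass (limma adjusted p = 0.312), whereas without SS_WT replicate 3 it did (log2 fold change -0.21, limma adjusted p = 0.0373). Markers of the thick ascending limb summed to between 938 and 1062 FPKM in Kcnj16_m1 and between 524 and 1189 FPKM in SS_WT.

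**Figure D4:**
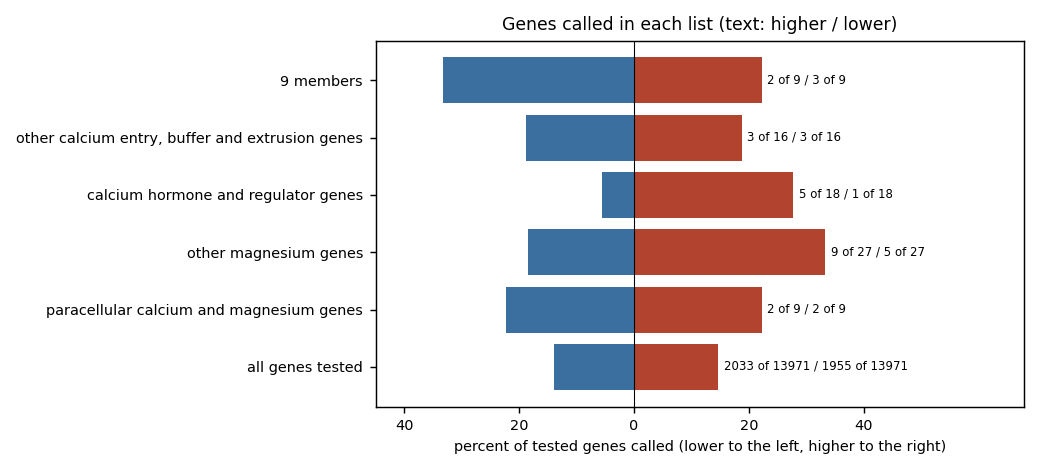
Percent of the tested genes of each list called higher (right) or lower (left) in Kcnj16_m1 at a limma adjusted p under 0.05, with the counts beside the bars as higher / lower. The 9 genes had 2 higher and 3 lower, and over all genes tested 14.6% were higher and 14.0% lower.

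For each called gene, the genes with the most similar profile over the 10 libraries were sought among 11471 others by the root mean square difference of centred log2 values. For Trpm6 they were B3gat1 (0.06), Cnnm2 (0.07) and Aif1l (0.08), beside a root mean square of 0.23 for Trpm6 itself. For Cnnm2 they were Arhgap10, Efhd1 and Camta2, all at 0.06. Trpv5 was most like Pon3 (0.11), Slc6a9 (0.13) and Casp4 (0.13), and Chchd3 and Dcps (each 0.07) were among the genes most like Slc41a1. The genes nearest to Calb1, Asgr2, Fam25a and Sik1, stood at 0.41, 0.45 and 0.46 beside a root mean square of 0.83 for Calb1 itself.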

How the data were processed

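Polyadenylated RNA of left kidney cortex was sequenced in 10 libraries, per the labels' protocols. The authors deposited 1 FPKM value per gene and library. Tools named, with no role, in the submitters' processing notes are featureCounts 1.5.0-p3, StringTie 1.3.3b, fastp and HISAT2 2.0.5. The labels and table name no genome build. The protocols describe directional and non-directional libraries without saying which was made. Columns were assigned by the identifier in each sample's title and groups by genotype. Because no label ties each library to its own animal, the p-values describe variation among these libraries, part of which may be technical. The smallest nonzero product of FPKM and gene length in each library was taken as 1 read. Divided by it, the products came out as whole reads, to within 0.05 reads, for 99.98% or more of the nonzero values in each library.

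The filter kept genes that reached 0.5 FPKM in 5 or more libraries. R 4.3.3 with limma 3.58.1 tested their log2(FPKM + 0.5) values, using eBayes variances that follow the mean and two-sided Benjamini-Hochberg adjusted p-values. The fit was also run on simulated reads with the same dispersion for every gene, unlike these data, and no result here rests on that run. Exact permutation tests used all 252 splits. Profiles, ratios and counts were computed in Python 3.11.15. The 9 genes, the 4 pathway lists and the marker lists were chosen with earlier results of these data known. The text names the 9 genes, up to 6 genes of smallest adjusted p per list, and Trpv6, Slc12a3, Pvalb, Egf and Kcnj16. Outside this rule it names Trpm7 and, as relatives of named genes, Cnnm1, Cnnm4, Ptp4a1 and Ptp4a2. For each called gene it adds the 3 most similar profiles among genes with a mean of at least 1 FPKM. Some genes this rule selects are not reported here. Alternatives changed the pseudocount, filter, scaling, variance model, reference and libraries.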

Additional observations from a re-analysis of the deposited data

Results flagged for a closer look

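Trpv5 in Kcnj16_m1 replicate 3, at 3.90 FPKM, stood apart from the other 4 mutant libraries, which lay between 2.63 and 2.97 FPKM. Its gap to the nearest of them was 0.728 of the range of the group, above the critical value of 0.71 for 5 libraries. The same library was the highest mutant library for Calb1, Slc8a1, Atp2b1 and Trpm6. Of 18 gene and group combinations examined this was the only one past that value. Chance passes it in about 1 of 20 combinations, so 1 among 18 is about what chance gives. Without the library, the log2 fold change of Trpv5 was -0.76.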

How the results depend on the processing

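All 5 calls among the 9 genes kept their direction and stayed past the threshold with each library left out in turn (2 higher and 3 lower each time). They also did with pseudocounts of 0.1 and 1, no filter, a filter at 1 FPKM (where Slc41a3 was not tested), quantile normalization, median-of-ratios factors, no variance trend, and voom on recovered reads, an alternative chosen after seeing the data. SS_WT replicates 1 and 2 were left out together because their identifiers hold the lowest numbers among the wild-type libraries. Without both, 1 gene was higher and 2 were lower, as Calb1 and Trpm6 no longer passed (limma adjusted p = 0.0587 and 0.0563). Relative to Slc12a3, Klhl3 and Pvalb, which by construction lowers every difference, 0 of the 9 were higher (0 also at an unadjusted limma p under 0.05) and 6 lower, and the same counts were found with Slc12a3 and Klhl3 alone. Trpm6, Cnnm2 and Slc41a3 turned to -0.025, -0.063 and -0.31, and to -0.23, -0.26 and -0.51 with those 2 markers alone. On these references the calcium route list had 0 and 0 higher (0 and 0 unadjusted) and 8 and 11 lower genes, and the regulators 1 and 1 higher and 6 and 9 lower. The other magnesium list had 2 and 0 higher (2 and 0 unadjusted) and 15 and 18 lower genes, and the list of passage between cells 0 and 0 higher (0 and 0 unadjusted) and 5 and 6 lower. With 1 library left out, counts ran from 4 to 8 higher for the regulators and from 1 to 3 higher for passage between cells. For the other magnesium genes they ran from 6 to 9 higher and from 2 to 5 lower. The log2 fold change of the thick ascending limb gene Slc12a1, 0.15 and not called, ran from -0.029 without SS_WT replicate 3 to 0.231 without SS_WT replicate 4. No paired analysis was possible because the labels give no replicate numbers or pairing. The replicate numbers used here were assigned in sample order within each group and do not mark matched libraries. The planned count-model tests were not run, and voom is the test made on the recovered reads. Low read numbers limit Slc41a3 and S100g most.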
